A study of Psychotria grandis and Psychotria costivenia and Psychotria revoluta with 6 samples.

Results

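Leaf mRNA of Psychotria grandis, a nickel hyperaccumulator, was compared with that of Psychotria revoluta, a non-accumulator from the same locality. All libraries of both species were taken by their labels, which gave 4 of the 6 libraries of the series, 2 plants of each species with 1 library per plant. Both P. grandis plants were collected on 27 June 2014, and they were compared with P. revoluta plant 1, dated 27 July 2014, and P. revoluta plant 2, dated 27 June 2014. Dates are as the labels give them, and the July date, a month to the day after the others, could be an entry error that no other source here settles. All were wild plants of gallery forest on serpentine soil at Mil Cumbres, Cuba, of no stated age and without any treatment. By the coordinates in the labels, the P. grandis plants stood 107 m apart, the P. revoluta plants 80.6 m apart, and plants of different species 234 to 366 m apart. Both P. costivenia plants, hyperaccumulators from another locality, entered the filter on low counts, the scaling and the estimate of the spread between plants, and their levels are given for the named contigs and for some lists.

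Nickel hyperaccumulators hold nickel in their shoots at levels that poison most plants. In the model species of this trait, metal is taken up by root transporters that also carry iron or zinc, moves in the xylem bound to ligands such as citrate, histidine or nicotianamine, and is stored in leaf vacuoles, with ferroportin (IREG) family proteins among the vacuolar nickel transporters. Serpentine soils are rich in nickel, so that a non-accumulator growing beside a hyperaccumulator meets the metal but holds far less of it in its leaves. None of these genes could be looked up here, because the deposited tables list contigs, the assembled transcripts of P. grandis, under running numbers without gene names or sequences. The leaf label could not be set against leaf marker genes for the same reason.

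The values were raw read counts per contig. Reads of both species had been counted on contigs assembled from 1 P. grandis plant, per the series design text, and which of the 2 plants that was is not given in the sources used here. Of the 45143 contigs, 45142 had reads in P. grandis plant 1 and 37455 in plant 2, against 35465 and 38589 in the P. revoluta plants, at library totals of 45676087 to 57907913 counts. In the P. revoluta files, the header of the count column starts with a different species prefix than the label, and the labelled species is used throughout. Levels are given as TMM-scaled CPM (counts per 1000000 counts of the library, after the trimmed-mean scaling of edgeR). In leaf extracts, fewer cells of a type and less RNA per cell cannot be told apart. Nothing beyond separate plants is stated for the replicates, and at 2 plants against 2 an exact permutation test of a single contig cannot fall below a two-sided p of 0.333.

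The plants of P. grandis differed widely from each other, and P. grandis plant 2 lay closer to P. revoluta than P. grandis plant 1 did. Among the 27804 contigs with at least 10 counts in each of the 4 libraries, P. grandis plant 2 was within 2-fold of the P. revoluta mean for 82.0% of contigs. P. grandis plant 1 was within 2-fold of that mean for 41.8%. Plant 1 was at least 4-fold above the P. revoluta mean for 3449 contigs and at least 4-fold below it for 4831. Plant 2 was at least 4-fold above for 840 contigs and at least 4-fold below for 215. The species mean of P. grandis, which follows the larger value of the pair, was within 2-fold of P. revoluta for 64.0% of contigs. The P. grandis plants were within 2-fold of each other for 51.1% of contigs, and the P. revoluta plants for 93.6%. The biological coefficient of variation (edgeR), that is, the scatter among plants with counting noise removed, was 83.9% in P. grandis and 29.7% in P. revoluta. It was not estimated on these 27804 contigs alone, as edgeR was run on the 35660 contigs that passed the low-count filter.

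**Figure D1:**
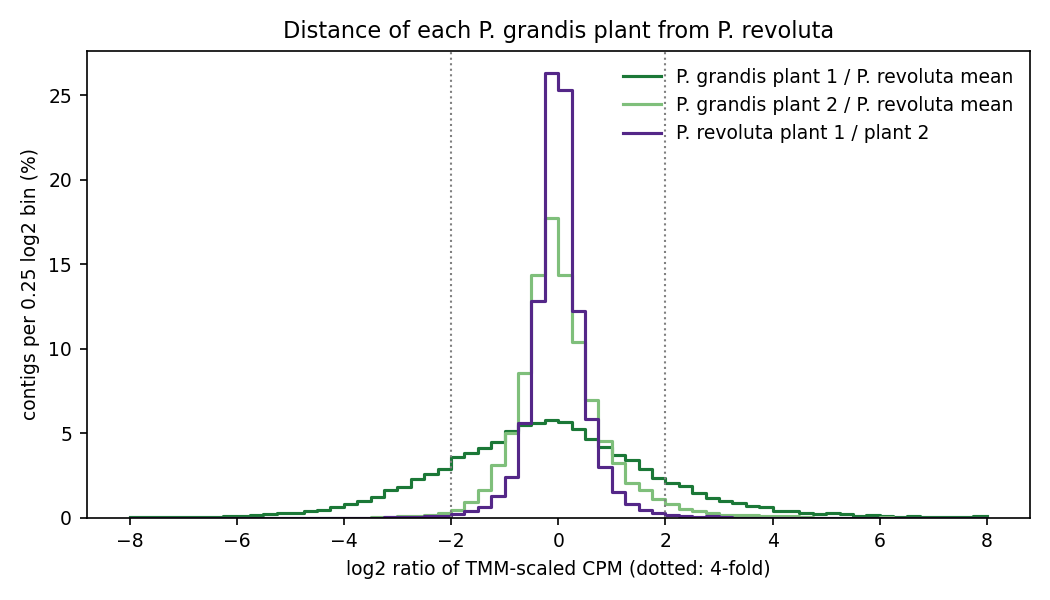
Distribution of log2 ratios of TMM-scaled CPM over the 27804 contigs with at least 10 counts in each of the 4 libraries, as percent of contigs per bin, for each P. grandis plant over the P. revoluta mean and for P. revoluta plant 1 over plant 2. Plant 1 is broad, with 41.8% of contigs within 2-fold, and plant 2 is narrow, with 82.0%.

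No contig passed the adjusted test between the species. In the edgeR quasi-likelihood fit of all 6 libraries, P. grandis was higher for 0 of 35660 tested contigs (0.0%) and lower for 0 (0.0%) at a Benjamini-Hochberg adjusted p of 0.05, with a smallest adjusted p of 0.0790. With an unadjusted p up to 0.05 (edgeR), P. grandis was higher for 6476 contigs (18.2%) and lower for 836 (2.34%). DESeq2 called 4995 contigs higher (14.0%) and 516 lower (1.45%), and limma-voom called 0. A limma-voom fit with a separate spread for each species, added after the data were seen, called 330 contigs higher and 0 lower. Of the contigs called higher, 1065 of the 4995 in DESeq2 and 173 of these 330 had 0 counts in both P. revoluta plants, so that they had passed the low-count filter through other species. In edgeR, 499 contigs were called higher and 19 lower without P. grandis plant 1, and 7778 higher and 7423 lower without plant 2, in fits that assumed the remaining plant to vary like the other species. Without P. revoluta plant 1 or plant 2, edgeR called 0 contigs, and 2840 or 3073 were higher and 110 or 200 lower with an unadjusted p up to 0.05. These fits filtered the contigs anew and tested 35759, 40570, 40597 and 40254 of them. With the 35660 contigs of the full fit kept, an alternative added after the data were seen, edgeR called 518 higher and 19 lower without P. grandis plant 1, 8522 and 7130 without plant 2, and 0 without either P. revoluta plant. The median log2 fold change (P. grandis over P. revoluta) of these contigs was 0.128 with all plants, 0.020 without P. grandis plant 1, 0.156 without P. grandis plant 2, 0.156 without P. revoluta plant 1 and 0.209 without P. revoluta plant 2. Among the 27804 contigs with at least 10 counts in each of the 4 libraries, the median log2 ratio to the P. revoluta mean was negative. It was -0.236 for P. grandis plant 1, -0.040 for plant 2 and -0.096 for the P. grandis mean.

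Contigs with an unadjusted p up to 0.05 (edgeR) were more often higher than lower in P. grandis in each of 4 classes of abundance, with the widest surplus among scarce contigs. Among the 9551 tested contigs with a mean under 1 CPM over the 4 plants, P. grandis was higher for 2348 and lower for 97. Of these 2348, 970 had no reads in P. revoluta and so had passed the low-count filter through other species. From 1 to 10 CPM there were 13536 contigs, with 2541 higher, 253 of them without reads in P. revoluta, and 351 lower. From 10 to 100 CPM there were 11075, with 1409 higher, 7 of them without reads in P. revoluta, and 338 lower, and above 100 CPM there were 1498, with 178 higher and 50 lower. At this threshold over all classes, limma-voom gave 5068 higher and 2075 lower and DESeq2 7846 and 2011, against 6476 and 836 in edgeR. The cause of this difference between methods was not tested. The P. grandis assembly was the reference for both species, so expression and match to the reference cannot be told apart in the balance of any method. The counts by class are those of edgeR. Among contigs with at least 10 counts in each of the 4 libraries, the numbers were 126 higher and 52 lower of 3412 under 1 CPM, 1589 and 332 of 11902 from 1 to 10 CPM, 1348 and 338 of 10994 from 10 to 100 CPM, and 176 and 50 of 1496 above 100 CPM, so that the surplus remained in each class and was no longer widest among the scarcest. Over all classes, with the contigs of the full fit kept, there were 10468 higher and 8885 lower without P. grandis plant 2, and 4940 and 1534 without plant 1.

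By order alone, without regard to size, both P. grandis plants lay above both P. revoluta plants for 11920 contigs (33.4% of those tested) and below both for 9770 (27.4%). The P. grandis plants fell on opposite sides of both P. revoluta plants for 2740 contigs with plant 1 above and for 2965 with plant 2 above. Both P. grandis plants lay between the P. revoluta plants for 867 contigs. In the remaining 7398 contigs, 1 P. grandis plant lay between the P. revoluta plants or values were tied. The share of higher contigs was larger at larger gaps. With a gap of at least 2-fold between the nearest plants of the species, on the scale of CPM + 1, P. grandis was higher for 1774 contigs and lower for 283. With a gap of at least 4-fold, 377 contigs were higher (1.06%) and 25 lower (0.0701%), and with at least 10-fold, 83 were higher and 1 lower, on values that carry no test. With CPM + 0.1, the 4-fold gap was met by 1886 higher and 49 lower contigs, and with at least 10 counts in each library by 216 and 24. The balance of higher and lower contigs differed between the P. grandis plants. Taken alone, plant 2 was at least 4-fold above both P. revoluta plants for 463 contigs and at least 4-fold below both for 37. Plant 1 alone was at least 4-fold above both for 3206 contigs and below both for 2091. Among contigs with at least 10 counts in each library, these numbers were 2020 and 2014 for plant 1, and 271 and 32 for plant 2. The mean of the P. grandis plants, treated as a single value, was at least 4-fold above both P. revoluta plants for 1852 contigs and below both for 73. A mean lies between its plants, so a count based on it could not be smaller than the count that held in each plant. The counts were 1852 against 377 contigs on the higher side and 73 against 25 on the lower. Leaving out P. revoluta plant 1, so that all plants had the same labelled date, gave gaps of at least 4-fold for 455 contigs higher and 38 lower, and leaving out P. revoluta plant 2 gave 452 and 80. The contigs at least 4-fold lower in P. grandis plant 2 alone then numbered 78 and 132. Leaving out a P. revoluta plant could only keep or raise these gap counts, so they do not test the date. The P. revoluta plants differed at least 4-fold from each other for 229 of the 27804 well-counted contigs.

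**Figure D2:**
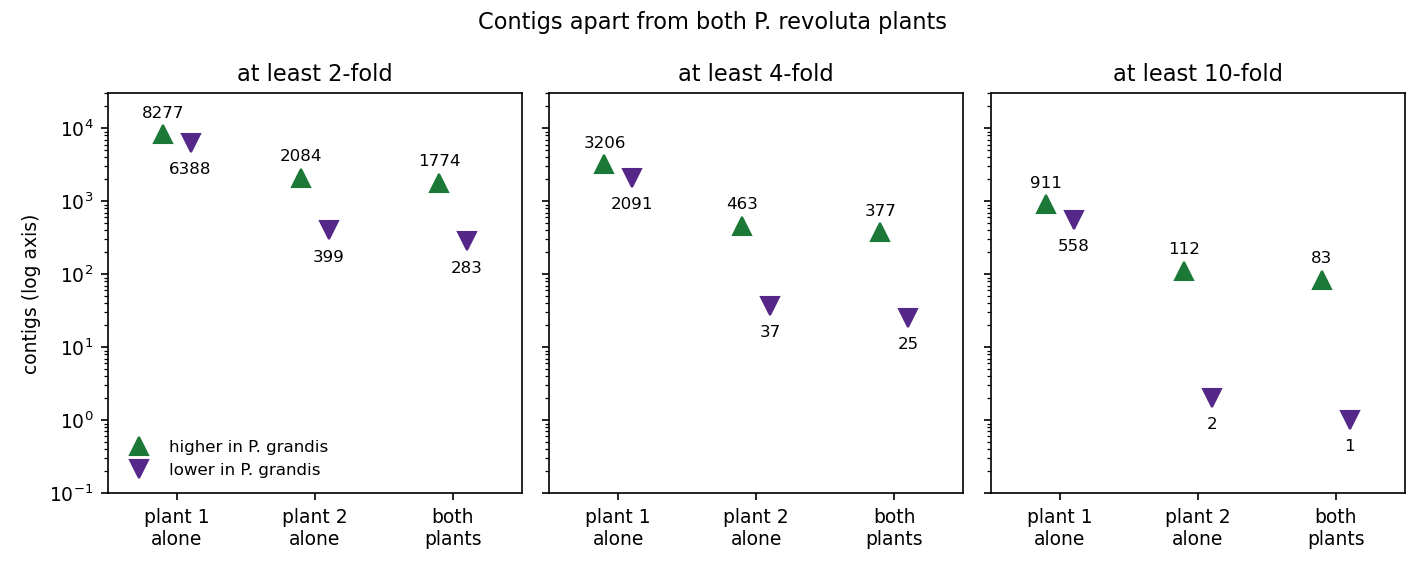
Number of contigs (log axis) at least 2-fold, 4-fold and 10-fold above or below both P. revoluta plants, on CPM + 1, for P. grandis plant 1 alone, plant 2 alone and both plants. At 4-fold, plant 1 gives 3206 higher and 2091 lower contigs, plant 2 gives 463 and 37, and both plants give 377 and 25. No minimum count is set here, and with at least 10 counts in each library plant 1 gives 2020 and 2014.

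The 377 contigs at least 4-fold higher in both P. grandis plants took a far larger share of the P. grandis libraries than of the P. revoluta libraries. They held 12.2% of all counts in P. grandis plant 1 and 2.92% in plant 2, against 0.157% and 0.132% in P. revoluta plants 1 and 2. In each library, the 10 most abundant of them took 9.21% of the counts in P. grandis plant 1 and 1.94% in plant 2, against 0.103% and 0.0811% in the P. revoluta plants. At the median of the list, P. grandis had 26.4 CPM in plant 1 and 10.8 CPM in plant 2, with a median of 20.0 CPM for the species mean, against 0.392 and 0.347 CPM in the P. revoluta plants. As the contigs were chosen for this gap, these values describe the list and are no test of it. The median of P. grandis over P. revoluta means was 66.6-fold, with the 44 contigs without any read in P. revoluta set at their bound, computed against 3 counts over both plants. Of the others, 76 had 1 to 9 counts over both P. revoluta plants and 257 had at least 10.

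Within this list, the level often differed between the P. grandis plants. Plant 1 was the higher of the pair for 332 of the 377 contigs, 123 were within 2-fold between the plants, and 110 were at least 4-fold apart, 104 of these with plant 1 above. Among the 27804 well-counted contigs, 51.1% were within 2-fold, and plant 1 was at least 4-fold above plant 2 for 1745 and below it for 3771. The list required the lower P. grandis plant to clear the gap, which plant 1 alone did for 3206 contigs and plant 2 alone for 463. How far the order of the plants within the list depended on this choice was not tested. The P. revoluta plants both had reads for 284 of the contigs and were within 2-fold of each other for 201 of those. In P. costivenia, whose counts entered the choice through the scaling alone, the same contigs had medians of 7.80 and 7.77 CPM in plants 1 and 2, with 21 and 31 contigs at 0 counts, and took 3.13% and 1.80% of the counts. The edgeR adjusted p of these contigs ranged from 0.0790 to 0.336, in a test on the same libraries that chose them.

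**Figure D3:**
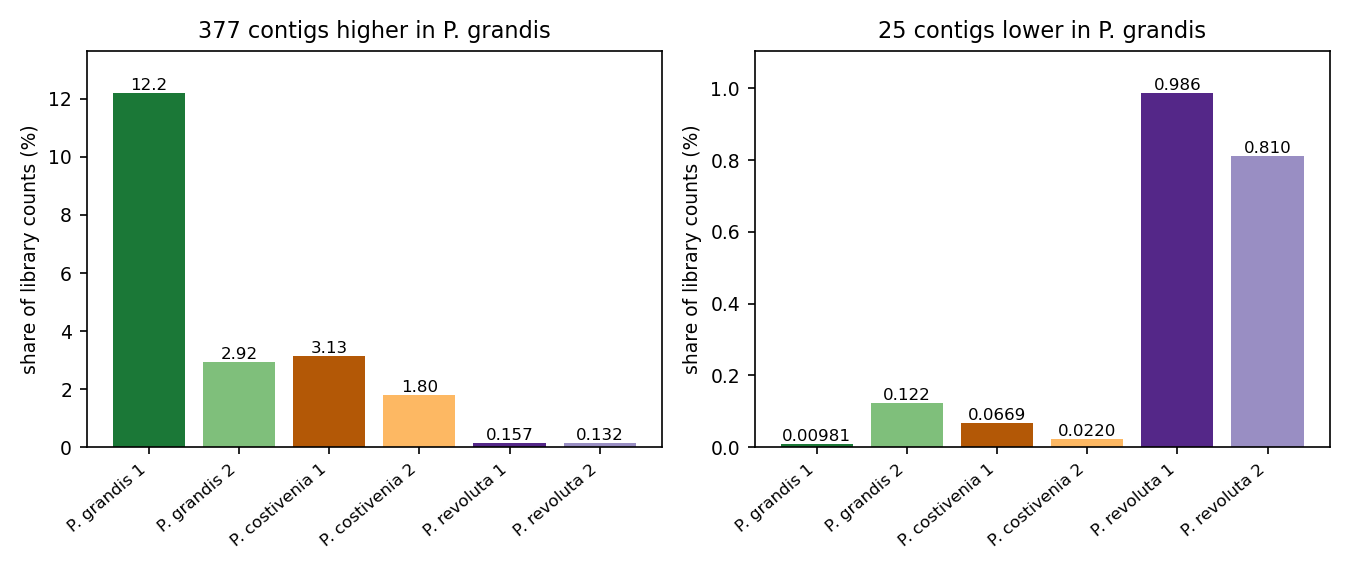
Share of all counts of each library, in percent, held by the 377 contigs at least 4-fold higher in both P. grandis plants (left) and by the 25 contigs at least 4-fold lower (right), with bars from 0. The higher contigs hold 12.2% and 2.92% of the P. grandis libraries against 0.157% and 0.132% of the P. revoluta libraries.

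Pgra_v1_contig_1190 had the largest ratio between the nearest plants among contigs with at least 10 counts in each library. It stood at 658.9 and 319.6 CPM in P. grandis plants 1 and 2, a species mean of 489.3 ± 240.0 CPM (SD, n = 2), against 0.470 and 1.25 CPM in P. revoluta plants 1 and 2, a mean of 0.861 ± 0.553 CPM. Both P. grandis plants were high, 2.06-fold apart, with plant 2 lying 255-fold above P. revoluta plant 2. The groups did not overlap, as the choice of the contig required. The P. revoluta values rested on 30 and 65 counts, and those of P. grandis on 32328 and 16366. The log2 fold change was 9.15 (SE 1.14) and missed the threshold (edgeR adjusted p = 0.0976). Over 17 alternatives it ran from 8.49 to 10.06, with an adjusted p from 1.40e-22 (DESeq2) to 0.531, and it was called in 5 of them. P. costivenia plants stood between the species, at 163.5 and 47.8 CPM.

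Pgra_v1_contig_3 was the most abundant contig in the mean of P. grandis and was named as the most abundant one with a gap of over 4-fold. The P. grandis plants had 36132 CPM (plant 1) and 8676 CPM (plant 2), a mean of 22404 ± 19414 CPM (SD, n = 2), against 252.9 and 145.4 CPM in the P. revoluta plants, a mean of 199.2 ± 76.0 CPM. In P. grandis, this single contig accounted for 3.51% of all counts in plant 1 and 0.973% in plant 2, against 0.0279% and 0.0155% in P. revoluta. P. grandis plant 1 was 4.16-fold above plant 2, and plant 2 was 34.3-fold above P. revoluta plant 1. The species did not overlap, as the choice of the contig required. The log2 fold change was 6.81 (SE 2.14), which missed the threshold (edgeR adjusted p = 0.178), with 5.44 to 7.53 and an adjusted p of 3.58e-05 to 0.766 over the alternatives. The contig was not low in P. revoluta, where it ranked at number 572 by mean level. P. costivenia was split, with 7839 CPM in plant 1 and 206.1 CPM in plant 2.

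The 25 contigs at least 4-fold lower in both P. grandis plants had median levels of 1.32 CPM (plant 1) and 4.10 CPM (plant 2) in P. grandis, a median of 2.89 CPM for the species mean, against 37.0 and 36.6 CPM in the P. revoluta plants. They took 0.00981% and 0.122% of the P. grandis counts, against 0.986% and 0.810% of the P. revoluta counts. The median of P. revoluta over P. grandis means was 12.0-fold, and all 25 had reads in both P. grandis plants. Plant 1 was the lower P. grandis plant for 18 of them, the P. grandis plants were at least 4-fold apart for 8, in each case with plant 2 above, and 21 were within 2-fold between the P. revoluta plants. The medians in P. costivenia were 1.36 and 0.656 CPM.

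Pgra_v1_contig_28765 had the largest ratio on the lower side and was even between the P. grandis plants. It stood at 6.46 and 6.01 CPM in P. grandis plants 1 and 2, a mean of 6.24 ± 0.316 CPM (SD, n = 2), against 338.4 and 190.4 CPM in the P. revoluta plants, a mean of 264.4 ± 104.7 CPM. The higher P. grandis plant lay 29.5-fold below the lower P. revoluta plant. The log2 fold change was -5.40 (SE 0.95), which missed the threshold (edgeR adjusted p = 0.0984), and -5.76 to -4.93 over the alternatives, with an adjusted p of 2.40e-08 to 0.531. In P. costivenia the contig stood at 447.2 and 87.4 CPM, above both P. grandis plants.

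Pgra_v1_contig_35332, the most abundant contig on the lower side and number 5 by mean level in P. revoluta, took 0.711% and 0.655% of the P. revoluta counts. The P. grandis plants had 18.1 CPM (plant 1) and 860.6 CPM (plant 2), a mean of 439.4 ± 595.7 CPM (SD, n = 2), against 6456 and 6156 CPM in P. revoluta, a mean of 6306 ± 212.4 CPM. The P. grandis plants were 47.4-fold apart, and plant 2 was still 7.15-fold below the lower P. revoluta plant. Its log2 fold change of -3.84 (SE 1.89) missed the threshold (edgeR adjusted p = 0.312). Without P. grandis plant 2 it was -8.56 (edgeR adjusted p = 0.0253), and over the alternatives it ran from -8.56 to -2.87, with an adjusted p up to 0.825. The P. costivenia plants had 14.3 and 2.13 CPM.

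For some contigs the species mean described neither P. grandis plant. With at least 10 counts in each library, 62 contigs had plant 1 at least 2-fold above and plant 2 at least 2-fold below both P. revoluta plants, and 76 contigs had the reverse. Pgra_v1_contig_3779 had 91.7 CPM in plant 1 of P. grandis and 0.234 CPM in its plant 2, from 4500 and 12 counts, around P. revoluta values of 4.01 and 2.81 CPM. Its P. grandis mean of 46.0 ± 64.7 CPM (SD, n = 2), against 3.41 ± 0.848 CPM in P. revoluta, gave a log2 fold change of 3.75 (SE 2.41, edgeR adjusted p = 0.405), which turned to -3.85 without plant 1 and was 0.43 in limma-voom. The P. costivenia plants had 19.6 and 1.19 CPM. Pgra_v1_contig_28760 stood at 0.326 CPM in plant 1 and 118.6 CPM in plant 2, against 14.1 and 22.9 CPM in P. revoluta. Its P. grandis mean was 59.4 ± 83.6 CPM (SD, n = 2), against 18.5 ± 6.20 CPM in P. revoluta. The log2 fold change was 1.69 (SE 1.98, edgeR adjusted p = 0.617), and -5.94 without plant 2 (edgeR adjusted p = 0.0196). The P. costivenia plants had 194.8 and 590.7 CPM, above all plants of the other species.

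**Figure D4:**
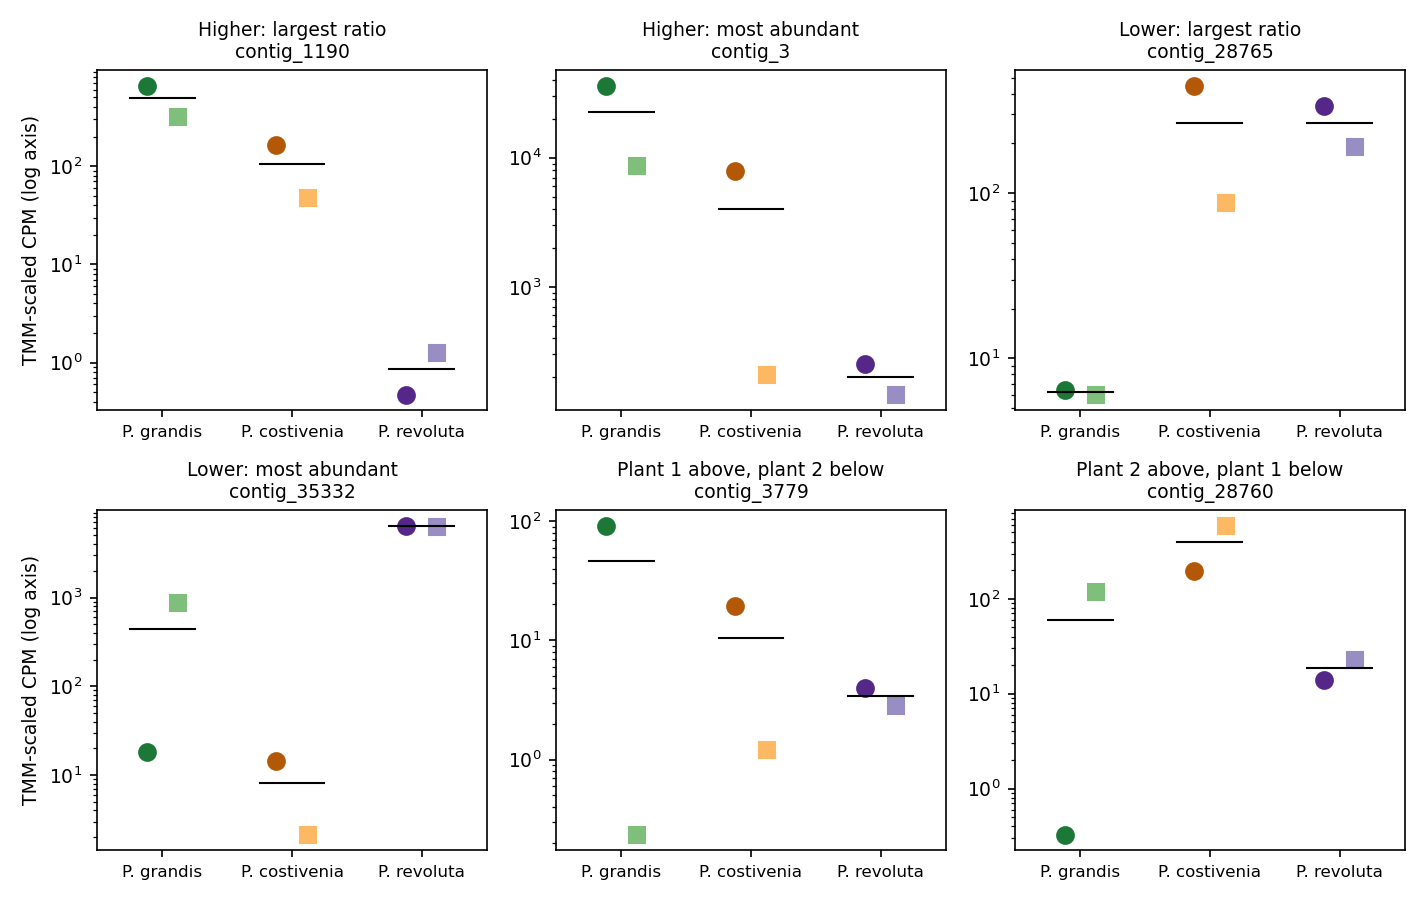
TMM-scaled CPM (log axis, scale differs between panels) of the 6 named contigs in each plant, with circles for plant 1, squares for plant 2 and lines for the species mean. In the first 4 panels both P. grandis plants lie on the same side of both P. revoluta plants, and in the last 2 (Pgra_v1_contig_3779 and Pgra_v1_contig_28760) the P. revoluta plants lie between them.

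Abundant leaf contigs showed the same contrast between the P. grandis plants. Of the 100 most abundant contigs of P. revoluta, chosen for that level, P. grandis plant 1 was within 2-fold of the P. revoluta mean for 22 and at least 4-fold below it for 53. Plant 2 was within 2-fold for 91 and at least 4-fold below for 3. These contigs took 9.96% of the counts of plant 1 and 21.4% of plant 2, against 23.5% and 25.6% of the P. revoluta libraries. The gap of at least 4-fold between both pairs of plants was met by 1 of the 100, Pgra_v1_contig_35332, about the share over all tested contigs in either direction (402 of 35660, 1.13%). Of the 100 most abundant contigs of the P. grandis mean, 10 met it, all higher in P. grandis, but a list chosen on the P. grandis level favours that direction. Those 100 took 29.7% and 20.4% of the P. grandis counts, against 18.6% and 20.6% of the P. revoluta counts.

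Some contigs had no read in P. revoluta. There were 829 contigs with at least 10 counts in both P. grandis plants and 0 in both P. revoluta plants, which allows up to 3 counts, or 0.0259 CPM, over both. In P. grandis their median was 1.59 CPM for plant 1 (78 counts) and 0.508 CPM for plant 2 (26 counts), so most were scarce, and 25 had a P. grandis mean of at least 10 CPM. Together they took 0.291% of the counts of plant 1 and 0.0957% of plant 2. Set against 3 counts over both P. revoluta plants, the P. grandis mean was at least 43.8-fold higher at the median. Plant 1 was above plant 2 for 750 of them. The contigs were chosen for this difference, so these values describe them without a test. Reads were present in both P. costivenia plants for 630 of the 829 and in neither for 92. Over all 45143 contigs, P. costivenia plants 1 and 2, each taken alone, had reads for 36216 and 35362. Whether presence in P. costivenia was more frequent among the 829 than elsewhere was not tested. When only plant 1 was required to have 10 counts, 3675 contigs lacked reads in P. revoluta, against 838 when only plant 2 was. Plant 1 had reads for 45142 of the 45143 contigs, and the labels do not name the plant assembled, so this contrast and the makeup of the reference cannot be told apart.

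The opposite pattern could hardly occur where P. grandis plant 1 was included, because that plant had reads for 45142 of the 45143 contigs. The numbers of 0 that involve plant 1 are therefore no result. With 0 counts in both P. grandis plants and at least 10 in both P. revoluta plants there were 0 contigs, and with 0 counts in P. grandis plant 2 alone there were 21. In P. grandis plant 1, 0 contigs of this kind were found. A transcript found in P. revoluta alone would not be among the contigs of a P. grandis assembly, so the numbers without reads in each species are not comparable. In these tables, species, accumulation and match to the reference cannot be told apart.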

How the data were processed

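Leaf polyA libraries of 6 wild plants were made with a stranded Illumina TruSeq kit, per the labels' protocols. The authors deposited raw read counts per contig of a P. grandis transcriptome, 1 table per plant, per the file headers and the series design text. Not given in the sources used here: the assembler, aligner, counter, use of strand and handling of multiply matching reads. Near-identical or overlapping contigs are therefore uncertain.

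Counts were analysed with R 4.3.3 and edgeR 4.0.16. Contigs passed filterByExpr by species (minimum count 10, minimum total 15), which left 35660 of 45143 contigs (79.0%). Libraries were scaled by TMM, and 1 robust quasi-likelihood model of all 6 libraries took species as its factor (residual degrees of freedom 3, median prior 2.43). The contrast was tested two-sided with Benjamini-Hochberg adjustment. The SE of a log2 fold change is its size over the square root of F. Gaps between the nearest plants used TMM-scaled CPM + 1 without a test. DESeq2 1.42.0 and limma 3.58.1 gave alternatives. The fits were run on simulated counts as a check of the code only. Floors cover counting error only. The plants of a species differed by more than counting noise and were counted as separate plants, as labelled.

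Named contigs had at least 10 counts in each of the 4 libraries. In each direction they were the one with the largest ratio between nearest plants and the most abundant with a ratio of at least 4, plus 1 contig of each kind with P. revoluta between the P. grandis plants. The comparison, lists and rules were chosen with earlier results of these data known.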

Additional observations from a re-analysis of the deposited data

How the results depend on the processing

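The number of contigs called between P. grandis and P. revoluta was 0 in edgeR, limma-voom, under RLE scaling, under library totals and in the model of the 4 libraries alone, and it was 4995 higher and 516 lower in DESeq2, 330 higher with a separate spread for each species (chosen after seeing the data) and 16 higher without a filter on low counts. Leaving out single plants gave 0 to 7778 higher and 0 to 7423 lower calls, and with the contigs of the full fit kept (chosen after seeing the data) 0 to 8522 higher, among them 518 without P. grandis plant 1, and 0 to 7130 lower, among them 19. With an unadjusted p up to 0.05, lower contigs numbered 2011 in DESeq2, 2075 in limma-voom and 492 in the model of 4 libraries, and without single plants there were 2840 to 10234 higher and 110 to 9585 lower. With the contigs of the full fit kept, these were 4940 and 1534 without P. grandis plant 1, 10468 and 8885 without plant 2, 2973 and 107 without P. revoluta plant 1, and 3199 and 187 without plant 2. The median log2 fold change was 0.469 without a filter and 0.023 to 0.391 without single plants, or 0.020 to 0.209 with the contigs of the full fit kept. With CPM + 0.1, 1886 contigs were higher and 49 lower by a 4-fold gap, plant 1 alone had 8833 and 4121, and plant 2 alone had 2072 and 123. With at least 10 counts in each library, 216 contigs were higher and 24 lower. Plant 1 alone then had 2020 and 2014, and plant 2 alone had 271 and 32. Without single plants, the 4-fold gap was met by 452 to 3206 contigs higher in P. grandis and by 37 to 2091 lower, and plant 2 alone had 78 to 132 lower contigs without a P. revoluta plant.

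Contigs unread in P. revoluta numbered 365 with at least 30 counts and 838 to 3675 without single plants, and those unread in P. grandis 0 to 21. Pgra_v1_contig_28760 had a log2 fold change of -1.45 in limma-voom, -1.44 with a separate spread and -5.94 to 2.68 without single plants (-5.80 without P. grandis plant 2 with the contigs of the full fit kept), and Pgra_v1_contig_3779 had -3.85 to 4.64, or up to 4.77 with the contigs kept. Pgra_v1_contig_3779 had 0.43 in limma-voom with and without a separate spread, and 0.89 and 0.56 with the replicate block and its crossed form, where Pgra_v1_contig_28760 had 0.097 and 0.017. The cause of these shifts was not tested.

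The plants carry the numbers 1 and 2 in each species, but nothing in the labels pairs them. The differences between plants 1 and 2 had a correlation across contigs of -0.254 between P. grandis and P. revoluta. With the plant number as a replicate block, edgeR called 0 contigs, with 5200 higher and 680 lower with an unadjusted p up to 0.05. With crossed numbers, chosen after seeing the data, these were 0, 5631 and 948.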
